A study of Rattus norvegicus with 9 samples.

Results

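The genes described here encode the subunits of the proteasome together with its activators, its inhibitor and its assembly chaperones. They were chosen by symbol alone: a row was taken when its symbol began with Psma, Psmb, Psmc, Psmd, Psme, Psmf or Psmg followed by a digit, and Psmb8, Psmb9 and Psmb10, the subunits of the immunoproteasome, were left out. The rule gave 46 of the 22050 genes in the deposited tables. Of these, 44 had enough reads to be tested, among 13693 tested genes in all. By role, 7 genes encode the alpha ring and 7 the beta ring of the core, 6 encode the ATPases and 11 the other subunits of the cap, 4 encode other activators, 1 the inhibitor and 7 assembly chaperones. A further 2 encode core subunits restricted to other tissues, and 1, Psmc3ip, shares the name but encodes no subunit.

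RNA was sequenced from primary cortical neurons of Sprague Dawley rats, taken at embryonic day 19, in 9 libraries that form 3 groups of 3. In one group the neurons went through oxygen-glucose deprivation (OGD), which models the loss of blood flow in stroke, with Wnt3a at 100 ng/ml and Rspondin 1 at 50 ng/ml, given for 24 h. A second group had OGD without these proteins, at 1% oxygen for 4.5 h with a return to normal oxygen afterwards, and the control group was untreated. Wnt3a is a ligand of the Wnt/beta-catenin pathway and Rspondin 1 a secreted enhancer of Wnt signalling. The hours and oxygen of OGD are stated for the group with OGD alone, and no vehicle, transgene or harvest time is named in the labels. The authors' names for their comparisons do call the group with OGD alone vehicle. Cultures given Wnt3a plus Rspondin 1 without OGD were not analysed here. The labels do not say whether replicates are separate cultures or animals. The p-values below therefore describe the variation among these samples alone, and that variation may be technical.

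The proteasome is the protease that breaks down proteins marked with ubiquitin. Its core is a barrel of stacked rings, with inactive alpha subunits at the ends and beta subunits inside, some of which cut peptide bonds, and its cap binds ubiquitin chains, unfolds the substrate with a ring of ATPases and feeds it into the barrel. In neurons it controls the turnover of synaptic and regulatory proteins, and its genes are known to be raised together by the transcription factor NRF1 (Nfe2l1) when proteasome activity falls short.

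Promoter windows around the annotated start of 41 of the 46 genes were available from RefSeq (build GRCr8). They were searched on both strands for TGACNNNGC, the antioxidant-type element that NRF1 and NRF2 bind, and for CCAAT, the box bound by NF-Y. TGACNNNGC was found in 8 of the 41 windows (19.5%), against 12.1% of all 33469 RefSeq promoter windows of the same length, and CCAAT in 20 (48.8%), against 37.5%. Among core genes the shares were 4 of 13 (30.8%) for TGACNNNGC and 9 of 13 (69.2%) for CCAAT, and among cap genes 2 of 14 (14.3%) and 5 of 14 (35.7%). The windows below are those of the 2 activator genes with the highest changes after OGD, which are separated on chromosome 15 by 1 RefSeq gene, Emc9, and of 2 core genes that carry TGACNNNGC but differ in their call, Psmb2 called higher and Psmb5 not called. They run 5′ to 3′ along the gene, with motif letters in capitals, and lie at chr15:33038721-33039020 (plus strand) for Psme1, chr15:33052702-33053001 (minus strand) for Psme2, chr5:144254808-144255107 (plus strand) for Psmb2 and chr15:32047330-32047629 (minus strand) for Psmb5.
Psme1: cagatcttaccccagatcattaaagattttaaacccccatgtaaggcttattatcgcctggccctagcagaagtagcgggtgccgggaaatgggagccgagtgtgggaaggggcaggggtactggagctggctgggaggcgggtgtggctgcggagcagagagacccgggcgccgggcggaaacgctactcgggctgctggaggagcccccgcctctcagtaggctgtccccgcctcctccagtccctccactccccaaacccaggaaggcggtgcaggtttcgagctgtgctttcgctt
Psme2: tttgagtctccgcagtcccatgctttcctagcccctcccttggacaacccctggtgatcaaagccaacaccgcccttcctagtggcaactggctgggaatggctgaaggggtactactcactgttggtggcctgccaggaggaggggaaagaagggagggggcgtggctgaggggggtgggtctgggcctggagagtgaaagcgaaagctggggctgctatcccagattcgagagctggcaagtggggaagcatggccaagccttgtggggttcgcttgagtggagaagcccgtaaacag
Psmb2: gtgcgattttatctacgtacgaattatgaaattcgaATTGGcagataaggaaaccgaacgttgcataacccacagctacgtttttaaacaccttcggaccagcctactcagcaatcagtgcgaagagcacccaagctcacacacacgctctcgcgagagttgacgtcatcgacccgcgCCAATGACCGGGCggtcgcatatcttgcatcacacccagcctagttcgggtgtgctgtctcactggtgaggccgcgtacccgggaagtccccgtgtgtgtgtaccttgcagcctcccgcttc
Psmb5: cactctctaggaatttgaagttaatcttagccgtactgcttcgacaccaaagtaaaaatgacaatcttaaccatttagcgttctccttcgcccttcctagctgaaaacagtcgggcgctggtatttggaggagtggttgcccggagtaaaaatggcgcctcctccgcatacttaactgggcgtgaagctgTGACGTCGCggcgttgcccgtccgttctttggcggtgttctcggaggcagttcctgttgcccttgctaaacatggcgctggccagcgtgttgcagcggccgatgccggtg
Neither motif is found in the Psme1 and Psme2 windows. The Psmb2 window holds both, with a CCAAT box on each strand, and its TGACNNNGC shares 1 base with the neighbouring CCAAT. The Psmb5 window holds TGACNNNGC alone. Of the windows of genes called higher after OGD, 3 of 15 held TGACNNNGC, against 2 of 5 for genes called lower and 3 of 20 for genes not called. A match is a run of letters and does not show binding.

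Total counts per library ran from 14285914 to 25048521. Levels are given as FPKM, the authors' measure of reads per length of gene and per size of library, and changes as log2 ratios fitted to the counts with edgeR after TMM scaling, so 1 is a doubling and -1 a halving. A gene was called where its p-value, adjusted over all tested genes, was under 0.05. TMM scaling differed between groups, which by itself puts FPKM ratios of OGD over control 0.09 above the fitted log2 changes; the gap for a single gene can differ from this. On the first principal component, with 84.1% of the variance, control libraries lay at 92.9 to 95.8 and all others at -53.1 to -38.1, and OGD replicate 1 stood apart on the second, at 38.8. The labelled cell type was present but not alone: the 12 neuronal markers summed to 3500 to 3710 FPKM in control and 9 astrocyte markers to 1830 to 1970 FPKM.

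After OGD the core and cap of the proteasome changed little in a transcriptome that changed widely. Of the 4 other activators 3 rose and 1 fell, and the inhibitor rose. Of the 7 assembly chaperones 3 rose (42.9%), near the 36.3% of all tested genes that rose. Their median size of change, 0.24 on the log2 scale, was also below that of all tested genes. Of the 44 tested genes, 15 rose and 5 fell in OGD against control. That is 45.5% of them, below the 73.1% called among all tested genes, of which 36.3% rose and 36.8% fell. The median size of change, in either direction, was 0.20 on the log2 scale over the 44 genes and 0.63 over all tested genes. Only Psme1 and Psme2 among the 44 were called with a change of at least 2-fold, which 33.0% of all tested genes were. Core genes counted 3 higher, 1 lower and 10 not called, with a median log2 change of 0.12 and a range of -0.26 to 0.39. Cap genes counted 4 higher, 3 lower and 10 not called, with a median of 0.02 and a range of -0.66 to 0.43. Whether core and cap differ was not tested. The split leans on the scaling: with library totals in place of TMM, which moves the median of all genes from 0.02 to 0.105, 24 of the 44 genes rose and 2 fell, so that 92.3% of their calls were rises against 75.0% with TMM. Over all tested genes, rises made up 54.6% of the calls with library totals and 49.7% with TMM. That scaling gave 7 rises and 0 falls in the core and 7 rises and 1 fall in the cap.

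**Figure D1:**
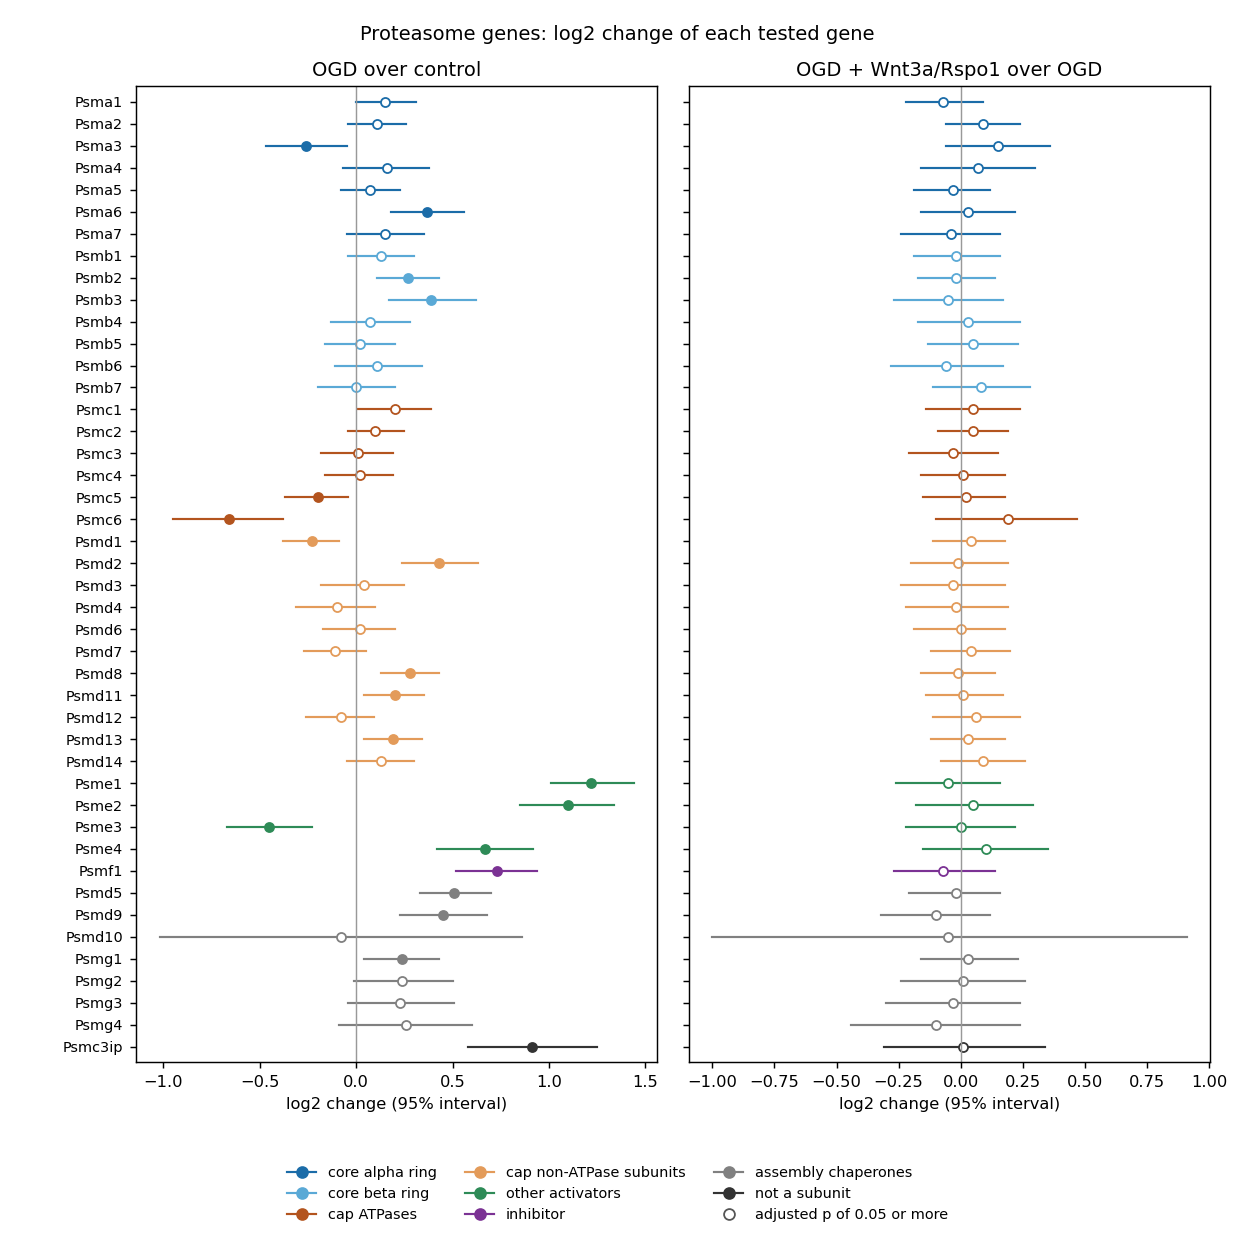
Log2 change of each of the 44 tested proteasome genes with its 95% interval, in OGD over control (left) and in OGD with Wnt3a plus Rspondin 1 over OGD (right, on its own scale). Colours give the role and filled points an adjusted p under 0.05; 20 points are filled on the left, with Psme1 farthest right at 1.22 and Psmc6 farthest left at -0.66, and none on the right.

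**Figure D2:**
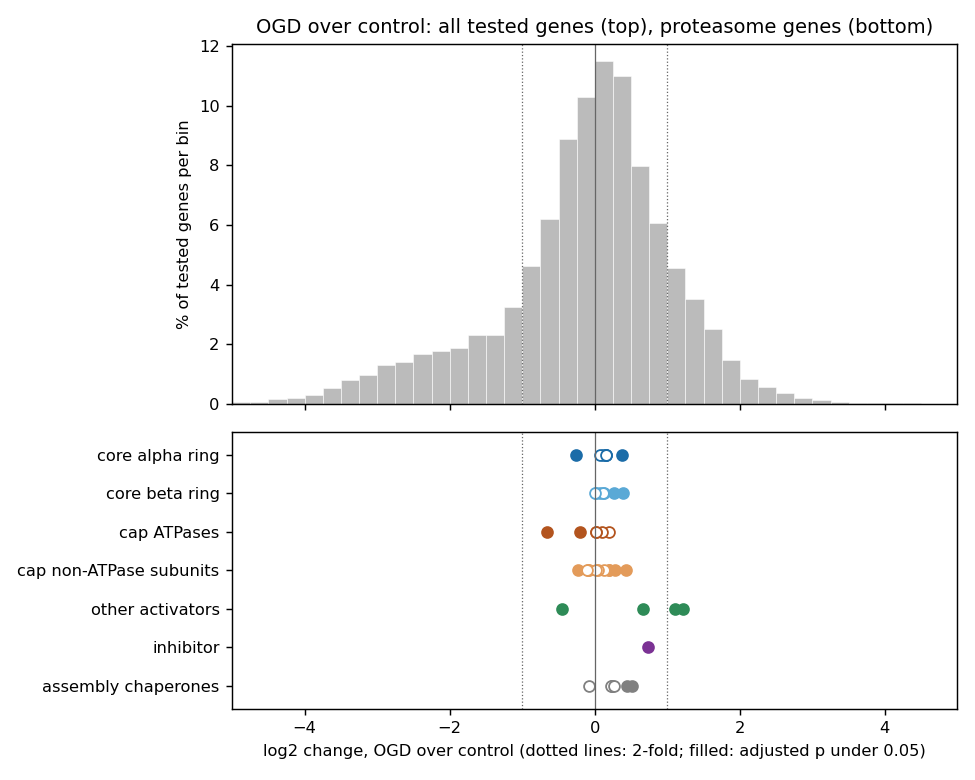
Log2 change in OGD over control. The upper panel gives the share of all tested genes per bin and the lower panel the proteasome genes by role, without Psmc3ip; the core and cap genes lie between -0.66 and 0.43, inside the dotted lines that mark a 2-fold change.

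The same cultures changed in cell-type markers, and in bulk RNA fewer cells of a type and less RNA per cell cannot be told apart. All 12 neuronal markers fell in OGD, to a sum of 608 to 826 FPKM, with a median log2 change of -2.60. All 9 astrocyte markers rose, to a sum of 5910 to 6360 FPKM, with a median of 1.48. All 6 tested microglial markers rose, summing to 20.2 to 22.6 FPKM in OGD and 3.18 to 5.28 FPKM in control. Of 6 neural progenitor markers 5 rose and 1 fell, summing to 4000 to 4570 FPKM in OGD and 1040 to 1170 FPKM in control. Of 8 oligodendrocyte lineage markers 5 rose and 3 fell, at 633 to 639 FPKM in OGD and 300 to 367 FPKM in control. Of 6 tested mural cell and fibroblast markers 3 rose and 2 fell, at 669 to 884 FPKM in OGD and 92.4 to 116 FPKM in control. Both tested endothelial markers rose, at 1.41 to 1.87 FPKM in OGD and 0.34 to 0.48 FPKM in control, and 1 of the 4 in the table, Cldn5, had no read in any library. The part of these shifts in the proteasome changes was not tested.

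Among the core genes, the alpha ring counted 1 rise and 1 fall among 7 (28.6% called, against 73.1% of all tested genes). Psma6 (ENSRNOG00000007114), an alpha subunit, had 153, 172 and 155 FPKM in the Wnt3a plus Rspondin 1 cultures, 140.4, 164 and 161 FPKM in OGD and 102, 112 and 125 FPKM in control. Every OGD library lay above every control library, and the fitted change was 0.37 ± 0.09 (log2 ± SE, adjusted p = 0.00199). Psma3 (ENSRNOG00000007851), another alpha subunit, had 37.3, 38.7 and 37.2 FPKM in the Wnt3a plus Rspondin 1 cultures, 27.5, 37.2 and 35.8 FPKM in OGD and 36.1, 38.0 and 39.4 FPKM in control. Its OGD and control libraries overlapped in FPKM, with OGD replicate 1 lowest of all. The fitted change of -0.26 ± 0.10 passed (adjusted p = 0.0255) but moved to -0.144 without OGD replicate 1 (adjusted p = 0.0647), and it also missed the threshold without control replicate 2 (adjusted p = 0.0741), without control replicate 3 (0.087), in a fit of the 6 OGD and control libraries alone (0.0666) and with library totals (0.131). Psma7 (ENSRNOG00000056853), the alpha gene with the highest level, had 249.7, 261 and 219 FPKM in the Wnt3a plus Rspondin 1 cultures, 276, 234 and 229 FPKM in OGD and 209, 208 and 210.3 FPKM in control. The OGD libraries lay above control, at a change of 0.15 ± 0.09 that was not called (adjusted p = 0.155; 0.0264 with library totals). Psma1, Psma2, Psma4 and Psma5 were not called, at 0.15, 0.11, 0.16 and 0.07.

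The beta ring counted 2 rises among 7 (28.6% called, against 73.1% of all tested genes). Psmb3 (ENSRNOG00000052730), a beta subunit without protease activity, had 156, 164 and 143 FPKM in the Wnt3a plus Rspondin 1 cultures, 182, 151 and 139 FPKM in OGD and 115, 113 and 110.0 FPKM in control. All OGD libraries were above all control libraries, OGD replicate 1 the farthest, and the change was 0.39 ± 0.10 (adjusted p = 0.00372). Psmb2 (ENSRNOG00000011463), also without protease activity, is given by library because its promoter is printed above. It had 143, 139.9 and 133 FPKM in the Wnt3a plus Rspondin 1 cultures, 142, 144 and 128 FPKM in OGD and 106, 109 and 108 FPKM in control. The groups with OGD lay above control, with a change of 0.27 ± 0.07 (adjusted p = 0.00465).

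None of the 3 catalytic beta genes was called after OGD. Psmb5 (ENSRNOG00000013386), which carries the chymotrypsin-like activity, had 145, 153 and 139 FPKM in the Wnt3a plus Rspondin 1 cultures, 153, 137 and 126 FPKM in OGD and 127, 131 and 131 FPKM in control. The OGD and control libraries overlapped, and the 95% interval of the log2 change was -0.16 to 0.20. Psmb6 (ENSRNOG00000019551), the caspase-like subunit, had 139.7, 133 and 122 FPKM in the Wnt3a plus Rspondin 1 cultures, 157, 119.7 and 128 FPKM in OGD and 117, 112 and 124 FPKM in control. OGD replicate 1 was the highest of the 9 and the other OGD libraries lay within or near the control range, with an interval of -0.11 to 0.34. Psmb7 (ENSRNOG00000011732), the trypsin-like subunit, had 214, 244 and 214 FPKM in the Wnt3a plus Rspondin 1 cultures, 179, 230.2 and 216 FPKM in OGD and 185, 189 and 216 FPKM in control. Here OGD replicate 1 was the lowest of the 9, and the interval was -0.20 to 0.20. Without OGD replicate 1 the sign of all 3 changed, to -0.064 for Psmb5, -0.017 for Psmb6 and 0.08 for Psmb7, so no direction is given for them. Psmb1 and Psmb4 were not called, at 0.13 ± 0.08 and 0.07 ± 0.10.

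In the cap, the ATPase ring counted 2 falls and no rise among 6 (33.3% called). Of all tested genes 73.1% were called and 36.8% fell. Psmc6 (ENSRNOG00000007203) encodes 1 of the 6 ATPases and had the largest fall of the core and cap genes. It had 33.1, 34.8 and 33.96 FPKM in the Wnt3a plus Rspondin 1 cultures, 21.8, 34.8 and 31.5 FPKM in OGD and 39.4, 44.2 and 47.98 FPKM in control. All OGD libraries lay below all control libraries, with OGD replicate 1 lowest. The change was -0.66 ± 0.13 (adjusted p = 0.000528), and ran from -0.8 to -0.495 with any one library left out. Psmc5, another ATPase gene, fell by 0.20 on the log2 scale (adjusted p = 0.0274), a call lost with library totals, in a fit of the 6 libraries alone, and without OGD replicate 3, control replicate 2 or control replicate 3. Psmc1 (ENSRNOG00000003951), the ATPase gene with the highest change, had 144, 155 and 143 FPKM in the Wnt3a plus Rspondin 1 cultures, 122, 155 and 144 FPKM in OGD and 109, 113 and 123 FPKM in control. OGD replicate 1 lay just under the highest control library, and the change of 0.20 ± 0.09 was not called (adjusted p = 0.0537), though it passed without OGD replicate 1 or control replicate 3, with library totals and with a replicate block. Psmc2, Psmc3 and Psmc4 were not called, at 0.10, 0.01 and 0.02.

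The other cap subunits counted 4 rises and 1 fall among 11 (45.5% called). Of all tested genes 73.1% were called and 36.3% rose. Psmd2 (ENSRNOG00000001719), a large scaffold subunit that docks ubiquitin receptors, had 204, 207 and 185 FPKM in the Wnt3a plus Rspondin 1 cultures, 219.9, 186 and 184 FPKM in OGD and 138, 145 and 129 FPKM in control. Each OGD library exceeded each control library, and the change was 0.43 ± 0.09 (adjusted p = 0.000741). Psmd1 (ENSRNOG00000017730), the other large scaffold subunit, had 65.2, 64.7 and 63.8 FPKM in the Wnt3a plus Rspondin 1 cultures, 57.01, 64.6 and 63.9 FPKM in OGD and 68.2, 69.6 and 69.5 FPKM in control. Its OGD libraries all lay below control, at -0.23 ± 0.07 (adjusted p = 0.0069), a call lost with library totals (0.0627). Psmd8, Psmd11 and Psmd13, subunits of the lid that covers the ATPases, rose by 0.28 ± 0.07, 0.20 ± 0.07 and 0.19 ± 0.07. The calls of Psmd11 and Psmd13 were lost without OGD replicate 2 or control replicate 1, and that of Psmd13 also without control replicate 3 and without a filter on low counts. Psmd14, the deubiquitinase of the lid, and Psmd4, an intrinsic ubiquitin receptor, were not called, with intervals of -0.05 to 0.30 and -0.31 to 0.10. The remaining 4 genes of this class, Psmd3, Psmd6, Psmd7 and Psmd12, were not called at -0.11 to 0.04.

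**Figure D3:**
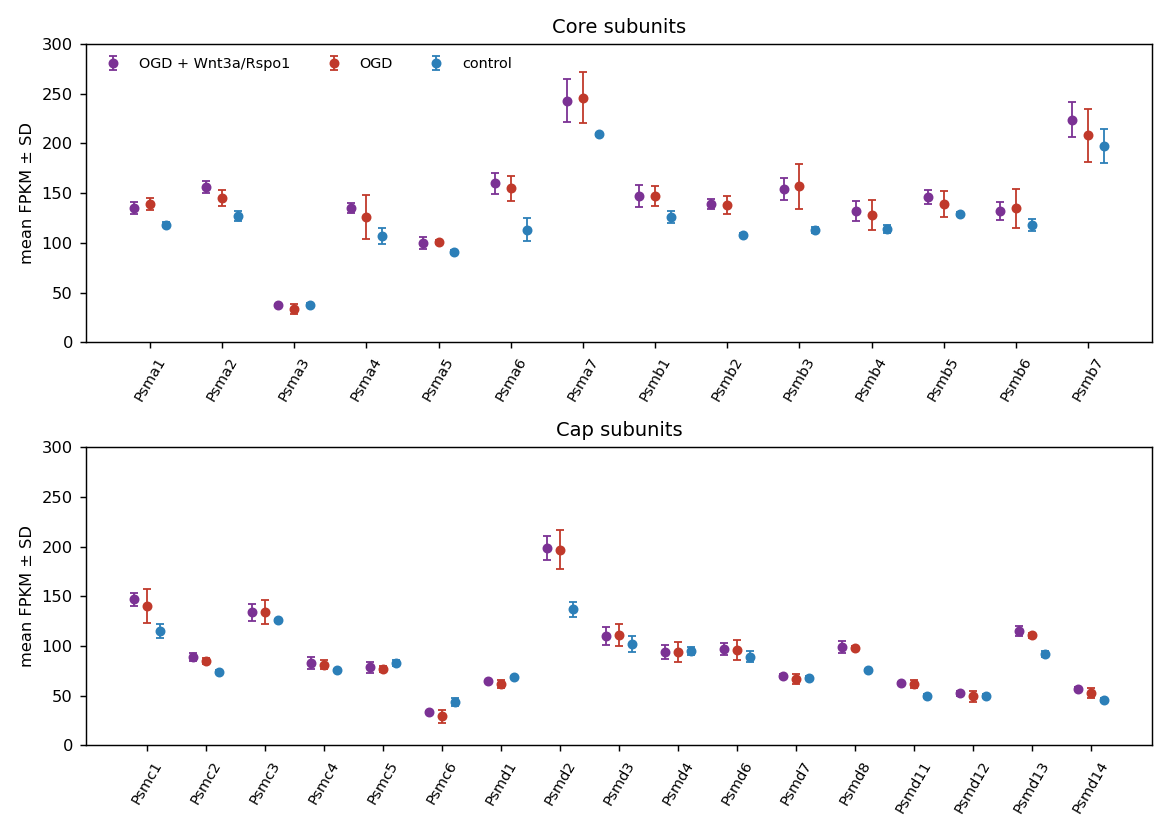
Mean FPKM ± SD (n = 3 libraries per group) of each core gene (upper panel) and each cap gene (lower panel), with OGD plus Wnt3a/Rspondin 1, OGD and control side by side. Psma7 is the highest core gene and Psma3 the lowest in every group, and Psmd2 the highest and Psmc6 the lowest cap gene.

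The core genes were present at like levels. In control, 13 of 14 lay within 2-fold of their median of 116 FPKM, between Psma7 at 209 ± 1.08 FPKM (mean ± SD, n = 3) and Psma3 at 37.9 ± 1.63 FPKM. Dividing counts by FPKM implies a gene length of 3.21 kb for Psma3 and of 0.717 to 1.19 kb for the other 13, so its low level hangs on the length used. Cap genes lay lower in FPKM, with a median of 76.2 FPKM in control and a range from Psmc6 at 43.9 ± 4.31 FPKM to Psmd2 at 137 ± 7.81 FPKM. In control all 17 cap genes lay within 2-fold of that median. Implied lengths ran from 1.29 kb (Psmc5) to 3.04 kb (Psmd1) in the cap, with 2.38 kb for Psmc6. The cap levels and their gap to the core therefore hang on the lengths too. By share of counts, cap genes took 0.254%, 0.259% and 0.256% in control and core genes 0.164%, 0.168% and 0.175%. The highest over the lowest cap level was 6.70-fold in OGD and 3.12-fold in control, and the highest over the lowest core level 7.34-fold in OGD and 5.51-fold in control. The ratio of the core median to the cap median was 1.58, 1.56 and 1.56 in the Wnt3a plus Rspondin 1 cultures, 1.68, 1.66 and 1.56 in OGD and 1.51, 1.5 and 1.57 in control. Those of OGD and control overlapped.

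Summed FPKM of the 14 core genes was 2036, 2156 and 1931 in the Wnt3a plus Rspondin 1 cultures, 2027, 2028 and 1940 in OGD and 1658, 1698 and 1767 in control. For the 17 cap genes it was 1597, 1646 and 1515 in the Wnt3a plus Rspondin 1 cultures, 1549, 1579 and 1511 in OGD and 1380, 1404 and 1394 in control. All 46 genes took 0.577%, 0.597% and 0.548% of the counts in the Wnt3a plus Rspondin 1 cultures, 0.558%, 0.573% and 0.548% in OGD and 0.469%, 0.480% and 0.483% in control. In each of these sums every OGD library exceeded every control library, and the 2 groups with OGD overlapped. The sums are relative to each library's total, were not tested, and carry the 0.09 offset of the scaling.

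Within each group, the extremes did not fall evenly on the 3 libraries. Of the 31 core and cap genes, replicate 2 of the Wnt3a plus Rspondin 1 cultures was the highest of its 3 libraries in 24 and replicate 3 the lowest in 24. OGD replicate 1 was the highest of the OGD libraries in 14 and the lowest in 15, and control replicate 1 was the highest of the control libraries in 6 and the lowest in 20. Such extremes were not counted over all tested genes, so they are not read as a trait of the 31. Without OGD replicate 1, 18 of the 44 genes rose and 5 fell. Psma3 and Psmg1 then missed the threshold, and the genes that newly passed were Psma4, Psmc1, Psmd14, Psmd4 and Psmg2.

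The 2 largest changes among the 44 genes were in activators that can replace the cap. Psme1 (ENSRNOG00000019041) and Psme2 (ENSRNOG00000019246) encode the paired subunits of the interferon-inducible activator, which opens the core without ATP or ubiquitin. Psme1 had 108, 114 and 97.6 FPKM in the Wnt3a plus Rspondin 1 cultures, 122, 106 and 98.1 FPKM in OGD and 44.03, 45.9 and 41.8 FPKM in control. Every OGD library was above every control library, at 1.22 ± 0.10 on the log2 scale (adjusted p = 1.49e-07), a 2.34-fold rise. Psme2, shown by library because it pairs with Psme1, had 29.9, 28.02 and 23.9 FPKM in the Wnt3a plus Rspondin 1 cultures, 23.2, 28.8 and 25.7 FPKM in OGD and 10.8, 11.5 and 11.99 FPKM in control. The groups were as well separated, at 1.10 ± 0.11 (adjusted p = 1.42e-06), a 2.14-fold rise. Psme3 (ENSRNOG00000051344), the nuclear relative of this pair, moved the other way and had 31.5, 34.2 and 32.5 FPKM in the Wnt3a plus Rspondin 1 cultures, 28.02, 36.2 and 37.8 FPKM in OGD and 40.2, 40.9 and 44.8 FPKM in control. All OGD libraries lay below control, OGD replicate 1 the farthest, and the change was -0.45 ± 0.10 (adjusted p = 0.00124).

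Psme4 (ENSRNOG00000060340), a large single-chain activator of the nucleus, and Psmf1 (ENSRNOG00000009640), the inhibitor, are given by library for their changes, a choice made after the values were seen. Psme4 had 36.8, 36.9 and 41.7 FPKM in the Wnt3a plus Rspondin 1 cultures, 27.1, 39.95 and 39.2 FPKM in OGD and 19.4, 21.2 and 22.4 FPKM in control. OGD replicate 1 was the lowest of the OGD libraries and still above all control libraries, and the gene rose by 0.67 ± 0.12 (adjusted p = 0.000174). Psmf1, which binds the core and can block it in vitro, had 25.4, 25.3 and 24.8 FPKM in the Wnt3a plus Rspondin 1 cultures, 28.2, 26.4 and 23.2 FPKM in OGD and 14.6, 14.1 and 15.5 FPKM in control. It rose by 0.73 ± 0.10 with no overlap between OGD and control (adjusted p = 1.55e-05). The level of Psme1 as a percentage of that of Psme3 was 341%, 333% and 301% in the Wnt3a plus Rspondin 1 cultures, 435%, 293% and 259% in OGD and 109%, 112% and 93.3% in control. This percentage did not overlap between OGD and control. Psme1 and Psme3 were picked as the highest and the lowest change of their class. The separation therefore follows from their values above and is no separate result.

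**Figure D4:**
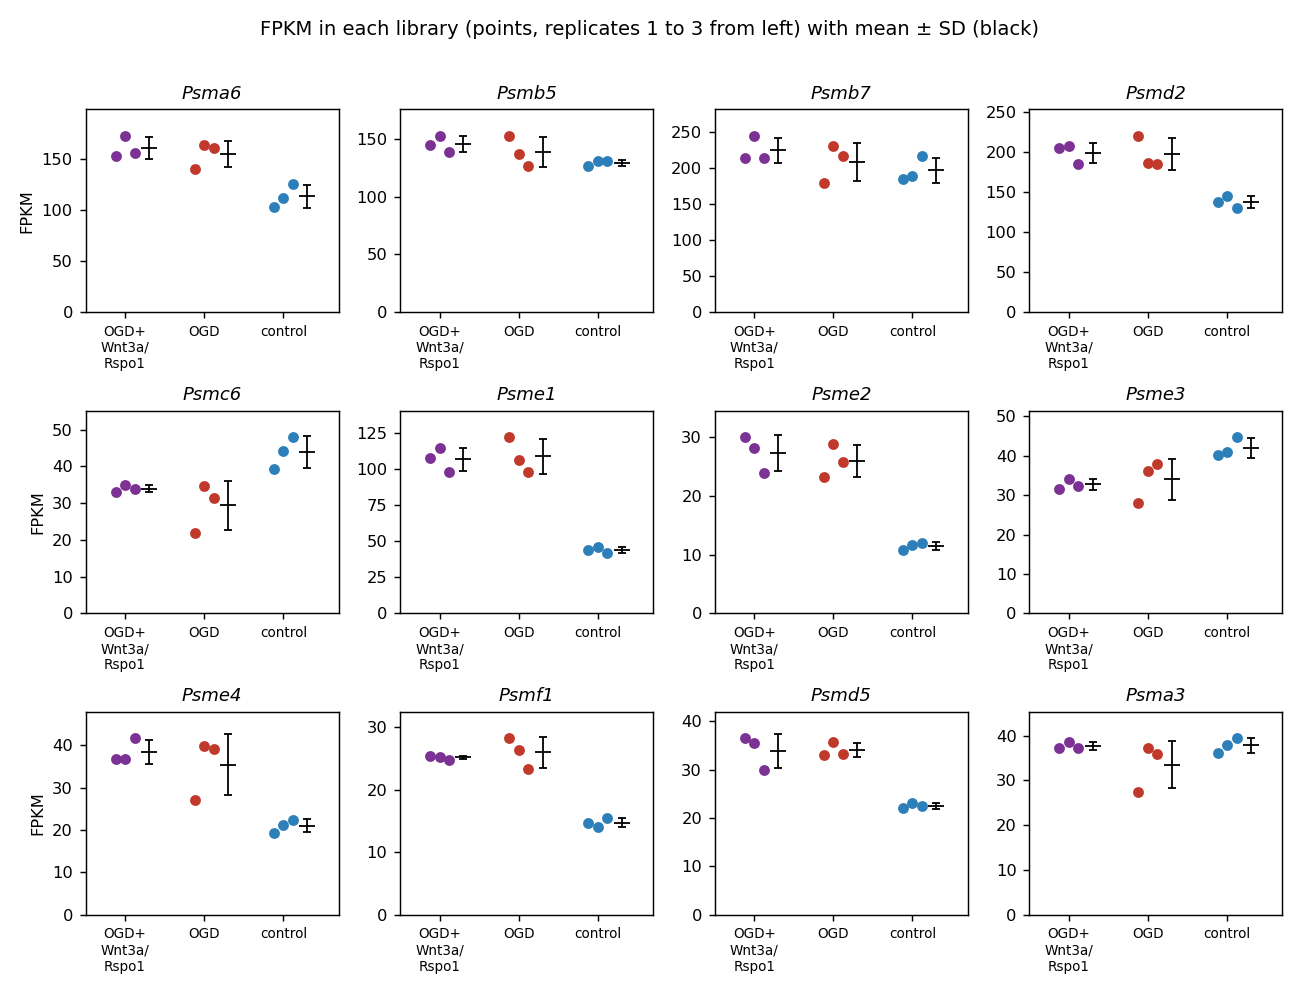
FPKM of 12 proteasome genes in each library (points, replicates 1 to 3 from the left) with mean ± SD in black, for OGD with Wnt3a plus Rspondin 1, OGD and control. In both groups with OGD, Psma6, Psmd2, Psme1, Psme2, Psme4, Psmf1 and Psmd5 lie above control and Psmc6 and Psme3 below it, while Psmb5, Psmb7 and Psma3 overlap between OGD and control.

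The assembly chaperones counted 3 rises and no fall among 7, with a median log2 change of 0.24. Their share of rises was 42.9%, against 36.3% of all tested genes. Psmd5 (ENSRNOG00000018809), which helps assemble the ATPase ring and leaves the finished cap, had 36.5, 35.4 and 29.9 FPKM in the Wnt3a plus Rspondin 1 cultures, 33.05, 35.7 and 33.2 FPKM in OGD and 21.96, 23.02 and 22.4 FPKM in control. The groups with OGD lay above control without overlap, at 0.51 ± 0.09 (adjusted p = 0.000138). Psmd9, another chaperone of the ATPases, rose by 0.45 ± 0.10 (adjusted p = 0.00136). Psmg1, a chaperone of the alpha ring, rose by 0.24 ± 0.09 (adjusted p = 0.0314), a call lost without OGD replicate 1, control replicate 2 or control replicate 3. Its partner Psmg2 and the pair Psmg3 and Psmg4 were not called at 0.24, 0.23 and 0.26. Psmd10 (ENSRNOG00000057649), the chaperone known as gankyrin, was near the limit of detection, with 12, 23 and 7 reads in the Wnt3a plus Rspondin 1 cultures, 8, 16 and 18 reads in OGD and 15, 16 and 17 reads in control. Its interval of -1.02 to 0.86 allows a change of about 2-fold either way, and its sign flips with library totals, to 0.007.

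The 2 genes left untested were those of other tissues. Psma8, the alpha subunit of the testis, had no read in any library, and 3 counts, the limit that a count of 0 allows, would be 0.12 to 0.21 CPM (counts scaled to a common total). Psmb11, the catalytic subunit of the thymus, had 8, 6 and 2 reads in the Wnt3a plus Rspondin 1 cultures, 1, 0 and 2 reads in OGD and 3, 6 and 5 reads in control. Psmc3ip, a cofactor of meiotic recombination that no proteasome contains, had 22.2, 17.5 and 17.1 FPKM in the Wnt3a plus Rspondin 1 cultures, 20.9, 17.7 and 17.1 FPKM in OGD and 10.2, 10.2 and 7.66 FPKM in control, and rose in OGD by 0.91 ± 0.16 (adjusted p = 0.000149).

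The genes that the rule left out encode the immunoproteasome subunits, which take the place of the catalytic ones after interferon. All 3 rose in OGD: Psmb8 by 1.52 ± 0.18, Psmb9 by 0.98 ± 0.21 and Psmb10 by 1.71 ± 0.14. Psmb10 had 62.8, 66.3 and 53.2 FPKM in the Wnt3a plus Rspondin 1 cultures, 68.9, 59.8 and 53.4 FPKM in OGD and 16.1, 20.97 and 15.8 FPKM in control. Its level as a percentage of that of Psmb7, which it replaces, was 29.3%, 27.1% and 24.9% in the Wnt3a plus Rspondin 1 cultures, 38.5%, 26.0% and 24.7% in OGD and 8.71%, 11.1% and 7.29% in control. For the sum of the 3 against the sum of Psmb5, Psmb6 and Psmb7 it was 17.0%, 16.8% and 15.1% in the Wnt3a plus Rspondin 1 cultures, 19.6%, 16.9% and 15.2% in OGD and 5.95%, 7.20% and 4.83% in control. These are ratios of RNA levels, higher in all OGD than in all control libraries, while the 3 standard catalytic genes were not called. The microglial and astrocyte markers rose in the same libraries, and their part in these ratios was not tested.

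Around the proteasome, 37 genes of the ubiquitin system were listed, 35 were tested, and 11 rose and 14 fell in OGD (71.4% called, near the 73.1% of all tested genes). Of the factors that raise proteasome genes, Nfe2l1 (NRF1) rose by 0.46 ± 0.08, Nfe2l2 (NRF2), which drives antioxidant genes, by 1.42 ± 0.11, and Ngly1, which activates NRF1 by removing its sugars, by 0.45 ± 0.08. Ddi2, the protease that cleaves NRF1, was not called, with an interval of -0.16 to 0.16. Nfe2l1 had 70.2, 65.4 and 67.8 FPKM in OGD and 45.9, 49.4 and 44.4 FPKM in control, with no overlap.

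Of 11 tested genes for other subunits and partners of the proteasome, 1 rose and 5 fell (54.5% called, against 73.1% of all tested genes). The riser was Pomp, the maturation factor of the core, at 0.40 ± 0.09. Usp14, the deubiquitinase bound to the cap, had 23.9, 39.6 and 38.1 FPKM in OGD and 71.4, 76.8 and 88.7 FPKM in control and fell to less than the level of any control library, at -1.25 ± 0.14. Ube3c, a ligase that lengthens ubiquitin chains at the proteasome, fell at -1.07 ± 0.10, the stress-inducible partner gene Zfand2a at -0.83 ± 0.09, the scaffold gene Ecpas at -0.45 ± 0.09 and Akirin2, which brings proteasomes into the nucleus, at -0.42 ± 0.09. The cap subunit genes outside the symbol pattern, Adrm1 and Sem1, were not called, at -0.14 ± 0.09 and 0.23 ± 0.12.

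Among the genes for ubiquitin and its activation, Rps27a, which encodes ubiquitin fused to a ribosomal protein, rose by 0.23 ± 0.08, and Uba1, the main activating enzyme, fell at -0.32 ± 0.07. The shuttle genes Ubqln2 and Ubqln4, which carry ubiquitin-marked proteins to the proteasome, fell at -0.56 ± 0.07 and -0.59 ± 0.06. Vcp, which encodes the unfoldase p97, rose by 0.16 ± 0.07 (adjusted p = 0.0432), and its cofactor Ufd1 fell at -0.47 ± 0.09. Of 5 ubiquitin genes known for neuronal roles, 1 rose and 3 fell (80.0% called, near the 73.1% of all tested genes). Uchl1, the abundant neuronal deubiquitinase, had 199, 178 and 224 FPKM in OGD and 772, 708 and 757 FPKM in control. It fell at -1.98 ± 0.10, beside the falls of the neuronal markers. Fbxo2, a brain ligase subunit for glycoproteins, rose by 1.54 ± 0.13.

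**Figure D5:**
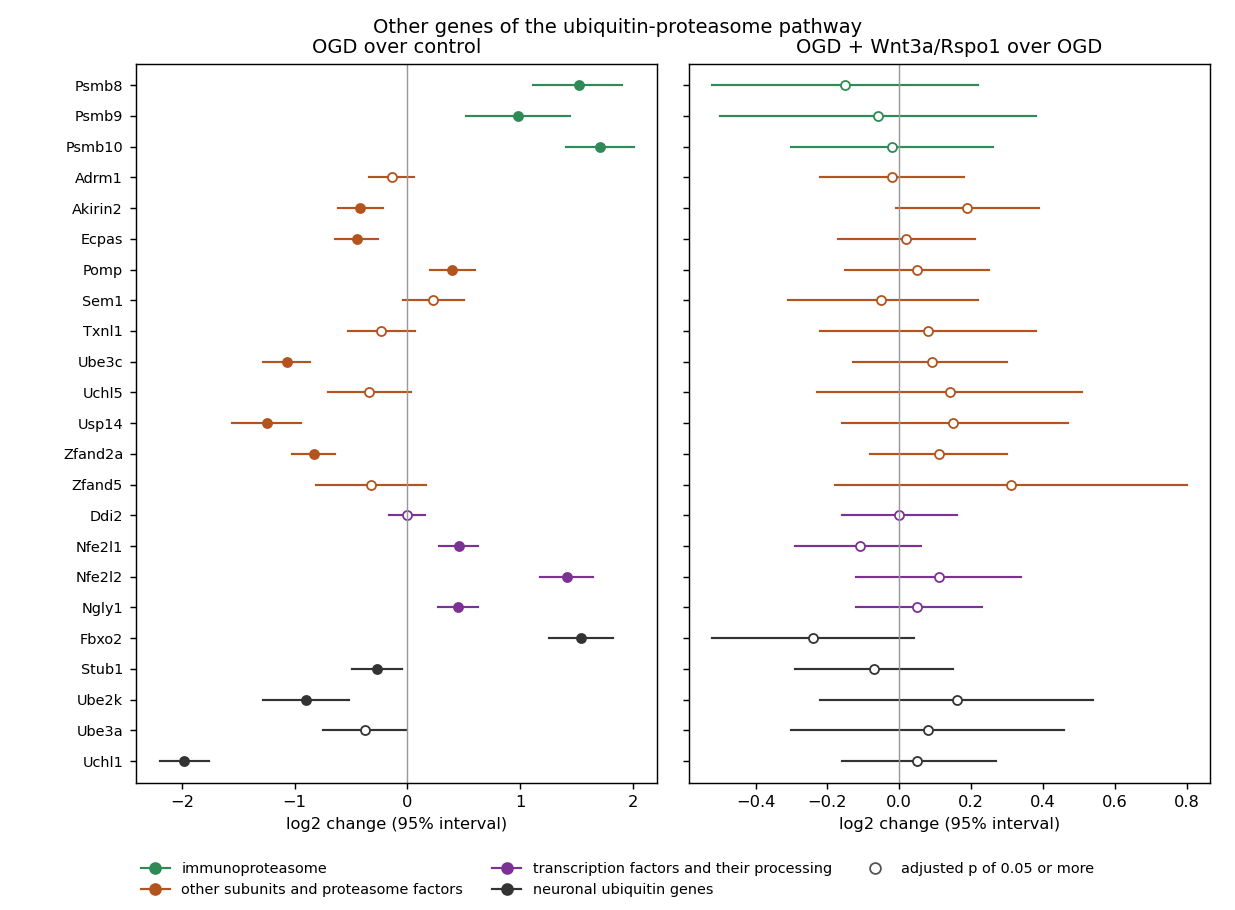
Log2 change with its 95% interval of the immunoproteasome genes, other proteasome subunits and factors, the transcription factors with their processing enzymes, and the neuronal ubiquitin genes, in OGD over control (left) and in OGD with Wnt3a plus Rspondin 1 over OGD (right, on its own scale). Filled points have an adjusted p under 0.05; on the left Uchl1 lies lowest at -1.98 and Psmb10 highest at 1.71, and no point is filled on the right.

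Setting OGD with Wnt3a plus Rspondin 1 against OGD asks what the proteins changed in these mixed cultures under OGD, not in neurons alone. In the Wnt3a plus Rspondin 1 cultures the astrocyte markers summed to 5600 to 5890 FPKM and the neuronal markers to 602 to 798 FPKM. In OGD alone they summed to 5910 to 6360 FPKM and 608 to 826 FPKM. No proteasome gene was called: 0 of 44, against 0.197% of all tested genes, by edgeR. DESeq2 also called 0. At an unadjusted p under 0.05 there were 0 of 44, against 5.73% of all tested genes. The smallest unadjusted p was 0.142 and the smallest adjusted p 0.976. The 95% intervals of the log2 change lay within -0.28 to 0.36 for the 14 core genes and within -0.24 to 0.47 for the 17 cap genes. FPKM overlapped between the groups for every one of the 44. That overlap was not counted over all tested genes, so it is not read as a trait of the 44. Smaller changes than these bounds are not excluded by the data.

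The 3 genes with the smallest p in this comparison were Psma3, Psmc6 and Psma2. Psma3 had 37.3, 38.7 and 37.2 FPKM in the Wnt3a plus Rspondin 1 cultures and 27.5, 37.2 and 35.8 FPKM in OGD. The edgeR change was 0.15 ± 0.10 (adjusted p = 0.976). Psmc6 had 33.1, 34.8 and 33.96 FPKM in the Wnt3a plus Rspondin 1 cultures and 21.8, 34.8 and 31.5 FPKM in OGD, and its edgeR change was 0.19 ± 0.13 (adjusted p = 0.976). In both, OGD replicate 1 lay below all the others, and without it the changes were 0.035 and 0.023. Psma2 (ENSRNOG00000049920) had 155, 162 and 150.4 FPKM in the Wnt3a plus Rspondin 1 cultures and 137, 153 and 145 FPKM in OGD. OGD replicate 1 was again the lowest, and the edgeR change was 0.09 ± 0.07 (adjusted p = 0.976). For the catalytic genes the intervals were -0.13 to 0.23 for Psmb5, -0.28 to 0.17 for Psmb6 and -0.11 to 0.28 for Psmb7. Psme1 and Psme2, which rose most after OGD, had intervals of -0.26 to 0.16 and -0.18 to 0.29. None of the 3 immunoproteasome genes and none of the 35 other genes of the ubiquitin system was called, with smallest unadjusted p-values of 0.388 and 0.0632.

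Reads of gene copies may limit some of these values. Copies were found by name alone, their sequences were not compared, and copies under other names would be missed. RefSeq names pseudogenes or like genes after 19 of the 46 genes, among them 15 of the 31 core and cap genes and 6 of the 11 that were called. Psmb3 has 10 such copies, Psma6 has 5 and Psme3 has 4. Psme1, Psme2, Psma7 and Psmb6 have 3 each, and Psma3, Psmb7, Psmc6 and Psmd8 have 2 each. How reads were shared between copies was not given in the sources used here. The values of these genes are uncertain to that extent. Psmb2, Psmb5, Psmd2, Psme4, Psmf1 and Psmd5 have no copy named after them. In the authors' deposited table of OGD over control, 14 of the 46 genes were higher and 5 lower at an FDR under 0.05, and 2 also passed 2-fold. In their table of Wnt3a plus Rspondin 1 over OGD, none did and the smallest FDR was 1.0.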

How the data were processed

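The files hold whole-number read counts per gene and FPKM values for 9 rat libraries, used as the authors deposited them, per the file headers. Their log2 fold and FDR (adjusted p-value) columns, also deposited, are quoted only as the authors' own, since the test behind them was not given in the sources used here. Libraries were made with a TruSeq RNA kit, per the labels' protocols. The submitters' processing notes list Bowtie (version 0.12.2), mm8 and mm9, which are mouse builds, while the gene identifiers are rat. The rat build, annotation, counter and strand setting were not given in the sources used here.

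The counts went into edgeR 4.0.16 (R version 4.3.3). The filterByExpr step kept genes at its settings of 10 for the minimum count and 15 for the minimum total, TMM set the scaling, and a robust quasi-likelihood model was fitted to all 9 libraries with a mean for each of 3 groups, leaving 6 residual degrees of freedom. The common biological coefficient of variation was 10.3%. Benjamini-Hochberg adjustment covered all 13693 tested genes. Alternatives were DESeq2 1.42.0, RLE and library-total scaling, other filters, 6 libraries alone, a replicate block and each library left out. Every pair of replicates differed by more than sampling noise, at a chi-square of 3.65 to 29.2 per degree of freedom. Limits from counts cover counting error only.

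Genes given by library were the catalytic subunits, the highest and lowest change in each role of 3 or more genes, the highest and lowest control level, and the 3 smallest p-values of the second comparison; Psmb2, Psme2, Psme4, Psmf1, Psmc3ip, Psmb10, Nfe2l1, Usp14 and Uchl1 were added after their values were seen. The genes, lists and tests were chosen with earlier results of these data known. Of the genes listed around the proteasome, Ubb and Paaf1 were not matched, and some others, though counted, are not reported here. Promoter windows are from RefSeq, build GRCr8; none was matched for Psma7, Psmb11, Psmd6, Psmd12 and Psmd14.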

Additional observations from a re-analysis of the deposited data

How the results depend on the processing

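With RLE scaling and with DESeq2 the same 20 proteasome genes were called in OGD against control as with edgeR and TMM. Library totals called 24 higher and 2 lower, of which 17 were shared. A fit of the 6 OGD and control libraries alone called 3 lower. With one library left out, 13 to 18 were higher and 3 to 5 lower, and 3 were lower without control replicate 2 or 3; over all genes the ranges were 4660 to 5126 higher and 4720 to 5098 lower. Nothing in the labels pairs the replicate numbers. To look for pairing, each gene's log2 CPM in a library was taken as its difference from the mean of its group. These differences, not the levels, were correlated between libraries. Within a group they sum to 0 for each gene, so the correlations are not independent. Same-numbered OGD and control libraries correlated in them at 0.273, -0.055 and 0.105, and OGD replicate 2 best with control replicate 3 (0.278). Between the groups with OGD, same-numbered libraries correlated at 0.232, 0.073 and 0.267 and each best with its own number, while the other pairs lay at -0.238 to -0.024, a hint of shared numbering from the data, not the design. The replicate block called 18 proteasome genes higher and 5 lower, and 0 between the groups with OGD.

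Some small changes reversed. Without OGD replicate 1, Psmb5 went to -0.064 and Psmb6 to -0.017; with any one library left out they ran up to 0.09 and 0.2. Psmb7 went to 0.085 with library totals, 0.019 in the 6 libraries alone, 0.08 without OGD replicate 1 and 0.067 without control replicate 3, with a low of -0.066 with one library left out. Psmd10, limited by depth, went to 0.007 with library totals, 0.091 without OGD replicate 1, 0.016 without OGD replicate 2 and 0.106 without control replicate 2, with a low of -0.376. The cause was not tested.

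For Wnt3a plus Rspondin 1 against OGD, 0 proteasome genes were called under each of these alternatives. Over all genes 24 were higher and 3 lower. The count higher was 12 in the 6 libraries alone, 43 with the replicate block, 61 with DESeq2 and 10 to 38 with one library left out. The count lower was 5 with RLE, 7 without a filter on low counts, 22 with the replicate block, 40 with DESeq2 and 2 to 11 with one library left out.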
